A study of Mus musculus with 22 samples.

Results

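The choroid plexus epithelium genes described here were Ttr, Enpp2, Clic6, Folr1, Kcnj13, Kl, Otx2, Kcne2, Prlr and Sostdc1, 10 of the 21176 genes that the arrays name. Every probe that is not a control and whose RefSeq transcript belongs to 1 of these genes was taken, which gave 14 of 55681 probes. Folr1, Kcnj13, Prlr and Sostdc1 had 2 probes each and the other genes 1. Each of 22 arrays held hippocampal RNA of 1 mouse. TgproNGF#3 and wild-type (WT) groups had 4 mice each at 1 month, 4 each at 3 months and 3 each at 12 months. TgproNGF#3 mice carry a mouse pre-proNGF that furin cannot cleave, followed by an IRES-EGFP, under the neuronal Thy1.2 promoter, and they descend from a single transgenic line. All mice had the C57Bl/6xDBA/2 background. No mouse was treated, and the RNA came from the hippocampus of the right hemisphere. The labels give males for the younger ages (1 and 3 months) and females for 12 months. Since every age was also run on a separate slide, effects of age cannot be told apart from those of sex or slide.

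The choroid plexus is the epithelium of the brain ventricles that secretes cerebrospinal fluid and forms the barrier between that fluid and the blood. It lies in the lateral ventricle directly along the hippocampus, attached at the fimbria, and it is no part of the hippocampal formation itself. Its cells make transthyretin in very large amounts, take up folate and other nutrients from the blood, and carry ion channels and transporters on their apical and basal membranes. In whole tissue, fewer cells of a type and less RNA per cell cannot be told apart.

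Levels are log2 intensities relative to the 75th percentile of the array, so that 0 is that percentile. All 14 probes were well above background on all 22 arrays, and no spot was saturated. The hippocampal markers Prox1, Wfs1 and Fibcd1 were also well above background on 22 of 22 arrays. Levels of different probes are not compared with each other, since probes differ in how well they bind.

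Ttr codes for transthyretin, the carrier of thyroid hormone and retinol-binding protein in cerebrospinal fluid. At 1 month its level was 4.41, 6.14, 2.17 and 5.18 in TgproNGF#3 replicates 1 to 4 and 1.97, 6.87, 4.57 and 6.21 in the WT mice. At 3 months it was 6.35, 2.38, 6.89 and 5.49 in TgproNGF#3 mice and 6.25, 6.19, 6.57 and 6.00 in WT mice. At 12 months it was 2.81, 2.90 and 6.89 in TgproNGF#3 mice and 2.97, 7.42 and 5.59 in WT mice. Mice of 1 genotype and age thus differed far more than the genotypes did, and the groups overlapped at every age. Over all 22 arrays the Ttr level spanned 5.45 on the log2 scale, a 43.8-fold range in intensity. WT mice of 3 months were the exception, with an SD of 0.24 (n = 4) against 2.01 (n = 4) in TgproNGF#3 mice of that age.

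**Figure D1:**
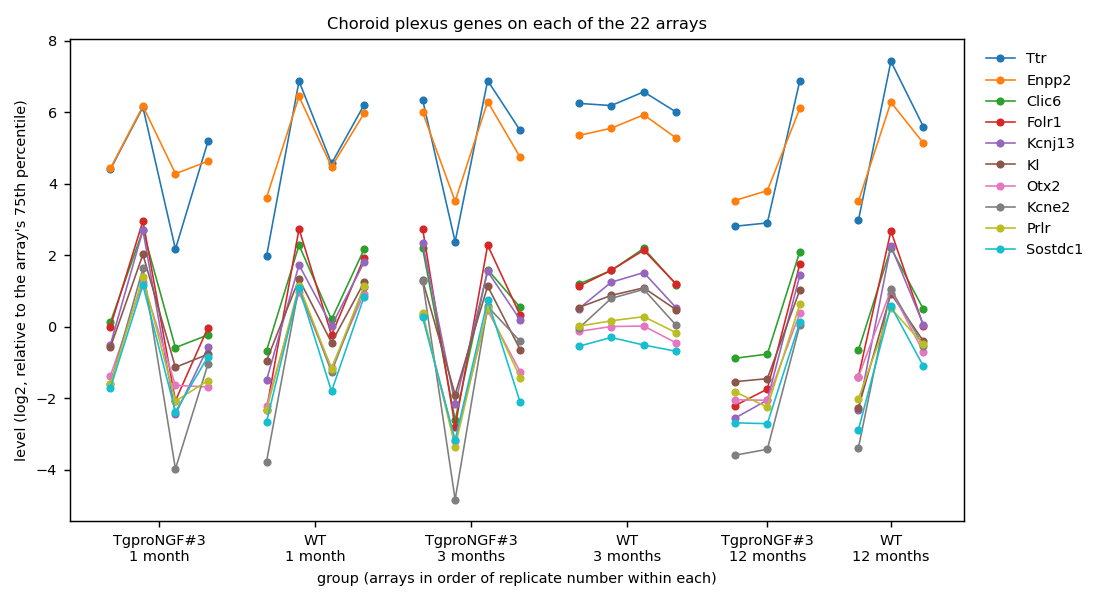
Level of each choroid plexus gene (log2 intensity relative to the 75th percentile of the array; 1 probe per gene) on each of the 22 arrays, grouped by genotype and age, with a line per gene joining the arrays of a group. The 10 lines rise and fall together from mouse to mouse, Ttr from 1.97 to 7.42, while the WT mice of 3 months stay level.

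Kcne2, a small subunit that modifies potassium channels such as Kcnq1 in this epithelium, had the widest span, 6.46 on the log2 scale (88.1-fold). Its level was 1.28, -4.83, 0.57 and -0.40 in TgproNGF#3 mice of 3 months and -0.04, 0.80, 1.05 and 0.04 in WT mice. TgproNGF#3 replicate 2 stood below every other array of the series for this gene. At 12 months Kcne2 was at -3.59, -3.42 and 0.05 in TgproNGF#3 mice and at -3.39, 1.05 and -0.54 in WT mice, so that each genotype held at least 1 low mouse. At 1 month the values were -1.61, 1.63, -3.97 and -1.04 against -3.77, 1.13, -1.27 and 1.10. The other potassium channel gene, Kcnj13, which codes for an inward rectifier of the apical membrane, spanned 5.25.

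Folr1 codes for the folate receptor that carries folate across the epithelium into the fluid. Its level spanned 5.76 (54.3-fold), from -2.80 in TgproNGF#3 replicate 2 of 3 months to 2.96 in TgproNGF#3 replicate 2 of 1 month. Clic6, of the chloride intracellular channel family, spanned 5.31 between the same 2 arrays, from -2.61 to 2.70. The hormone receptor gene Prlr, for the prolactin receptor, spanned 4.74 with its brighter probe and 3.71 with the other. Kl, for klotho, the co-receptor of FGF23, spanned 4.29.

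Otx2 codes for the homeodomain factor that choroid plexus needs to form. Its level was -1.37, 1.27, -1.64 and -1.68 in TgproNGF#3 mice of 1 month and -2.20, 0.98, -1.15 and 0.93 in WT mice. At 3 months it was 0.34, -3.20, 0.46 and -1.25 against -0.13, 0.01, 0.02 and -0.45, and at 12 months -2.04, -2.05 and 0.39 against -1.40, 1.03 and -0.71. High and low mice stood in both genotypes at 1 and 12 months. Sostdc1, a secreted inhibitor of BMP and Wnt signalling, spanned 4.32. The narrowest span was that of Enpp2, 2.93 (7.64-fold). Enpp2 codes for autotaxin, the secreted enzyme that makes lysophosphatidic acid, and is also expressed by oligodendrocytes.

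RefSeq promoter sequence was at hand for Kcnj13, Otx2, Kcne2, Kl and Prlr, 5 of the 10 genes with 11 listed starts. The 250 bases before a start are shown for these genes because their levels moved together across the mice. The windows come from build GRCm38.p6 and run 5′ to 3′ along the gene. Capitals mark TATAAA, the core of a TATA box, and TAATCC, which OTX-type homeodomains bind, each searched on both strands; no 2 matches overlapped.
Kcnj13, chr1:87394730-87394979, minus strand: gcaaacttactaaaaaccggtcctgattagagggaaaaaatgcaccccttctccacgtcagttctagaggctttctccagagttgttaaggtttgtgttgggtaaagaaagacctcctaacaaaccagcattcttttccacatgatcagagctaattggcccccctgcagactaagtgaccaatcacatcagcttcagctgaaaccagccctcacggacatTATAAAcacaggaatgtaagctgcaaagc
Otx2, chr14:48665110-48665359, minus strand: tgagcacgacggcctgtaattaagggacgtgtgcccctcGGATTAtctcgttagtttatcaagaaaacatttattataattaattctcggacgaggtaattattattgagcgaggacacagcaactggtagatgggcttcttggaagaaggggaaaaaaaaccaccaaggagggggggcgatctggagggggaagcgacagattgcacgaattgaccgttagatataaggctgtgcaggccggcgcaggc
Otx2, chr14:48667645-48667894, minus strand: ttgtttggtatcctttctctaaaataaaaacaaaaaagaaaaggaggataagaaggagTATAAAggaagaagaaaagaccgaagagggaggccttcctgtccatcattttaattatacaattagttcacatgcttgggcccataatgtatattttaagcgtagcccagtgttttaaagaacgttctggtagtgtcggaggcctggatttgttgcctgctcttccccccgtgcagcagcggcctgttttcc
Kcne2, chr16:92292139-92292388, plus strand: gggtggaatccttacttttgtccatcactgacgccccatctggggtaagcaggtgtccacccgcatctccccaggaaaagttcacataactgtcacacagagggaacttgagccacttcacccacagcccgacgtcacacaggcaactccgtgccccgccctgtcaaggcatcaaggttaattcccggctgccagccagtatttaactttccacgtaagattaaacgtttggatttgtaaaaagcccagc
Kl, chr5:150952357-150952606, plus strand: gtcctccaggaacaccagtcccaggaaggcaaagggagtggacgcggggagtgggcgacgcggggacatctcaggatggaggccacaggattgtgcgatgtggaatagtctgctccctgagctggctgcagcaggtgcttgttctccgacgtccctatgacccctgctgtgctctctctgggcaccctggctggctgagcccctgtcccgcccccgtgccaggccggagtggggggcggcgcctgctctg
Prlr, chr15:10176988-10177237, plus strand: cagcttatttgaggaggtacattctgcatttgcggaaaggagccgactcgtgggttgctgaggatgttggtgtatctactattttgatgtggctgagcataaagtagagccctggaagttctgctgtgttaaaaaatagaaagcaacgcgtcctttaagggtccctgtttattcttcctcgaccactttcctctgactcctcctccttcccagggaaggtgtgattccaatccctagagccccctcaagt
TATAAA stood in 2 of the 11 windows, 29 bases before the Kcnj13 start and 192 bases before an Otx2 start, and in 12.4% of all 32851 windows of this length. TAATCC stood in 1 of the 11, an Otx2 window, on the opposite strand 211 bases before the start, and in 6.25% of all windows. The windows of Kcne2, Kl and Prlr held neither run of letters.

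The 2 probes of a gene varied alike across the arrays. Pearson's r between them, on deviations from group means, was 0.99 for Folr1, 1.00 for Kcnj13, 0.97 for Prlr and 0.99 for Sostdc1 over 22 arrays. Their Log2 FC between the genotypes, as estimated below, differed more: at 3 months it was -1.04 and -0.47 for the brighter and the dimmer probe of Prlr and -0.87 and -0.51 for those of Folr1, and at 1 month -0.31 and -0.03 for Folr1 (SE between 0.54 and 1.19). The log2 spans of the brighter and the dimmer probe were 5.76 and 5.45 for Folr1 and 5.25 and 5.13 for Kcnj13. They were 4.74 and 3.71 for Prlr and 4.32 and 4.11 for Sostdc1. Above and below, each gene is given by its brighter probe unless the other is named.

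Deviations from the group means were shared by the genes over the series. For each pair of genes, the deviations of the arrays from the mean of their own genotype and age were correlated over 22 arrays, which made 45 relations. Pearson's r lay between 0.90 and 0.99 with a median of 0.96, and Spearman's rho between 0.88 and 0.99 with a median of 0.95. The highest of the 45 permutation p-values, with 100000 permutations of arrays within groups, was 0.00013 for r or rho, also after Benjamini-Hochberg adjustment. Without the 2 arrays farthest from the median of the first gene of a pair, r lay between 0.86 and 0.98. Groups with a wide spread between mice weigh most in these values. Within single groups, where n is 3 or 4 and no test was made, the median r lay between 0.88 and 1.00, but the lowest r of a pair was 0.27 in WT mice of 3 months (median 0.88), the group with the narrowest spread, and 0.66 in TgproNGF#3 mice of 1 month (median 0.95). Genes on 1 array share the RNA, the labelling and the scaling of that array.

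**Figure D2:**
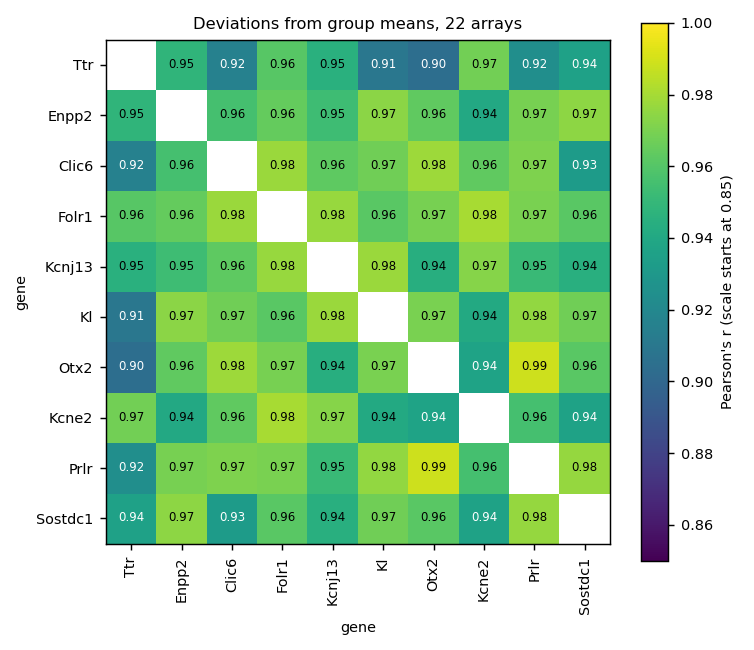
Pearson's r between each pair of the 10 choroid plexus genes, computed over 22 arrays on deviations from the mean of the array's genotype and age; the colour scale starts at 0.85. Every pair lies between 0.90 (Ttr and Otx2) and 0.99 (Otx2 and Prlr).

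The mean of the 10 genes left a gap between arrays 0.39 above their group mean and arrays 1.30 above it. Among the 15 arrays below this gap r lay between 0.79 and 0.97 (median 0.90), and among the 7 arrays above it between 0.15 and 0.95 (median 0.71), with 13 of 45 pairs under 0.5. These arrays were split on the mean of the same 10 genes, and the 7 upper ones span only 1.30 to 2.24 against -2.63 to 0.39 for the 15 lower ones, so the values of r on the 2 sides cannot be compared. Folr1 had the highest mean r with the other genes, 0.97, and Ttr the lowest, 0.93. For each log2 unit of Ttr, Kcne2 changed by 1.11 and Folr1 by 1.04, but Enpp2 by 0.57. These slopes are of single probes, and whether they differ by gene or by probe was not tested.

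Several mice held the same place in their group for every gene. TgproNGF#3 replicate 2 was the highest of its group at 1 month for 10 of 10 genes, and WT replicate 1 the lowest of its group for 10 of 10. At 3 months TgproNGF#3 replicate 2 was lowest for 10 of 10 genes, and at 12 months WT replicate 1 was lowest and WT replicate 2 highest for 10 of 10. The highest TgproNGF#3 mouse of 12 months was replicate 3, also for 10 of 10. Other places were split: the highest TgproNGF#3 mouse of 3 months was replicate 1 for 5 genes and replicate 3 for 5, the lowest WT mouse of that age replicate 4 for 7 and replicate 1 for 3, and the lowest TgproNGF#3 mouse of 12 months replicate 1 for 7 and replicate 2 for 3. The mean of the 10 genes had an SD of 1.60 in TgproNGF#3 and 1.74 in WT mice of 1 month, of 1.93 and 0.32 at 3 months, and of 1.78 and 1.74 at 12 months.

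No choroid plexus gene passed the test between TgproNGF#3 and WT mice at any age. A gene was called at an unadjusted p below 0.05 in limma with a Log2 FC above 1 or below -1. At 1 month 0 of 10 genes were called, where 0.57% of 40536 probes tested were called. At 3 months it was 0 of 10, beside 6.76% of 33593 probes, and at 12 months 0 of 10, beside 1.3% of 34064. At an unadjusted p below 0.05 without a fold limit the counts were also 0 of 10 at each age, beside 3.47% of all probes at 1 month, 27.2% at 3 months and 9.05% at 12 months. At a Benjamini-Hochberg adjusted p below 0.05 they were 0 of 10 at each age too, beside 0% of all probes at 1 month, 8.43% at 3 months and 0% at 12 months.

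The Log2 FC of all 10 genes was below 0 at each age, with a median of -0.46 at 1 month, -0.83 at 3 months and -0.75 at 12 months. The medians of all probes tested were 0.07, -0.12 and 0.01. The 10 genes varied together across the mice, so that their common sign does not count as 10 observations. The groups overlapped for 10 of 10 genes at each age, while they did not overlap for 3.32% of all probes at 1 month, 20.3% at 3 months and 15.5% at 12 months.

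For Ttr the Log2 FC was -0.43 ± 1.07 (SE, n = 4 and 4) at 1 month, -0.97 ± 0.82 at 3 months and -1.13 ± 1.37 (n = 3 and 3) at 12 months. The limma adjusted p was 1.00, 0.47 and 0.77, and the two-sided exact permutation p 0.743, 0.486 and 0.5. The 95% interval ran from -2.82 to 1.96 at 1 month, from -2.81 to 0.86 at 3 months and from -4.33 to 2.07 at 12 months. Changes of several fold in either direction at 1 and 12 months thus could not be told from none with these mice. With 4 against 4 mice the smallest exact p is 0.0286, and with 3 against 3 it is 0.1, so that the 12-month test cannot pass 0.05.

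**Figure D3:**
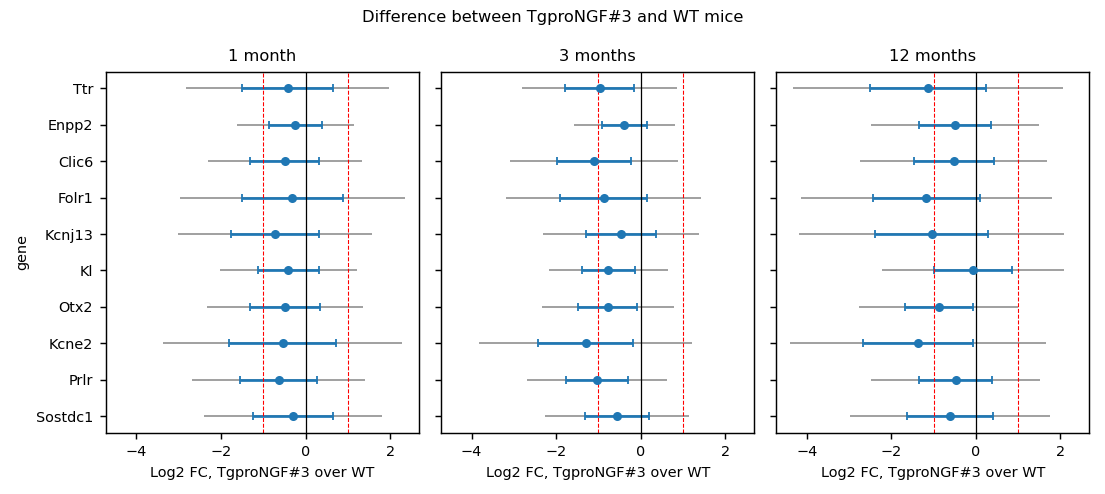
Log2 FC of TgproNGF#3 over WT for the 10 genes at each age (points), with SE (blue bars) and 95% interval (grey lines) from limma; dashed lines mark a Log2 FC of -1 and 1. Every interval crosses 0, and all points lie below 0, from -0.07 (Kl, 12 months) to -1.37 (Kcne2, 12 months).

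Kcne2 had the largest difference at 3 and 12 months, a Log2 FC of -1.31 ± 1.12 and -1.37 ± 1.29 (SE), with a limma adjusted p of 0.48 and 0.71. At 1 month the largest was that of Kcnj13, -0.72 ± 1.03, with an adjusted p of 1.00. The smallest unadjusted p of any gene was 0.194, for Prlr at 3 months, where its Log2 FC was -1.04 ± 0.74 with the brighter probe and -0.47 ± 0.54 (unadjusted p = 0.412) with the other. Enpp2 differed least at 1 and 3 months, with -0.24 ± 0.62 and -0.39 ± 0.53, and Kl at 12 months with -0.07 ± 0.92. The lowest exact permutation p among the 10 genes was 0.629 at 1 month, 0.429 at 3 months and 0.5 at 12 months.

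Single mice decided the size of these differences. Without TgproNGF#3 replicate 2 the median Log2 FC at 3 months was 0.01 in place of -0.83, and without TgproNGF#3 replicate 1 or 3 it was -1.27 or -1.33. At 1 month the median was -1.21 without TgproNGF#3 replicate 2 and -1.18 without WT replicate 1, but -0.01 without TgproNGF#3 replicate 3. Leaving out WT replicate 2 gave 0.01 and leaving out WT replicate 4 gave -0.03. At 12 months it was -1.62 without TgproNGF#3 replicate 3 and -1.44 without WT replicate 1, but 0.10 without WT replicate 2. Otx2 alone passed the thresholds in 1 such fit, without TgproNGF#3 replicate 3 of 12 months, at a Log2 FC of -1.69 (limma adjusted p = 0.77).

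The position on the slide moved with the differences at 1 month. Among the arrays of row 1, 2 of each genotype, the Log2 FC was above 0 for all 10 genes (Ttr 0.85, Kcne2 1.33). Among those of row 2 it was below 0 for all 10 (Ttr -1.71, Kcne2 -2.43). At 3 months Ttr differed by -1.85 in row 1 and -0.10 in row 2, and at 12 months by -1.39 in row 2, which held 3 TgproNGF#3 mice and 1 WT mouse. Whether the row or the mice in it differ was not tested.

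The change with age was also not detectable. The difference between the Log2 FC of 12 and of 3 months passed an adjusted p below 0.05 in limma for 0 of 10 genes, beside 4.52% of 32427 probes, and an unadjusted p below 0.05 for 0 of 10, beside 18.5% of the probes. The smallest unadjusted p was 0.577, for Kl, with a difference of 0.70 ± 1.23 (SE). For Ttr the difference was -0.16 ± 1.77.

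Further genes of this epithelium varied with the 10. Of 31 other choroid plexus genes, 30 had a probe, and the mean of their levels correlated with the mean of the 10 genes by r = 0.99 and rho = 0.99 over 22 arrays (both permutation p = 1e-05, the smallest that 100000 permutations give, adjusted p = 9e-05 over 9 relations), and r was 0.99 without the 2 farthest arrays. Of these genes 0 of 30 were called at 1 month, 0 of 30 at 3 months and 0 of 28 at 12 months, beside 0.57%, 6.76% and 1.3% of all probes, with medians of -0.28, -0.34 and -0.66. Without TgproNGF#3 replicate 3 the 12-month count was 6 of 27, where 1% of all probes were called in the same fit. Single mice left out gave 1 call of 30 at 1 month (TgproNGF#3 replicate 2, beside 0.542% of all probes) and 1 of 30 at 3 months (TgproNGF#3 replicate 1, 2 or 4, or WT replicate 2, beside 5.68% to 7.73%). The defining genes Aqp1, Slc4a5, Cldn2 and Tmem72 were well above background on 22 of 22 arrays.

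**Figure D4:**
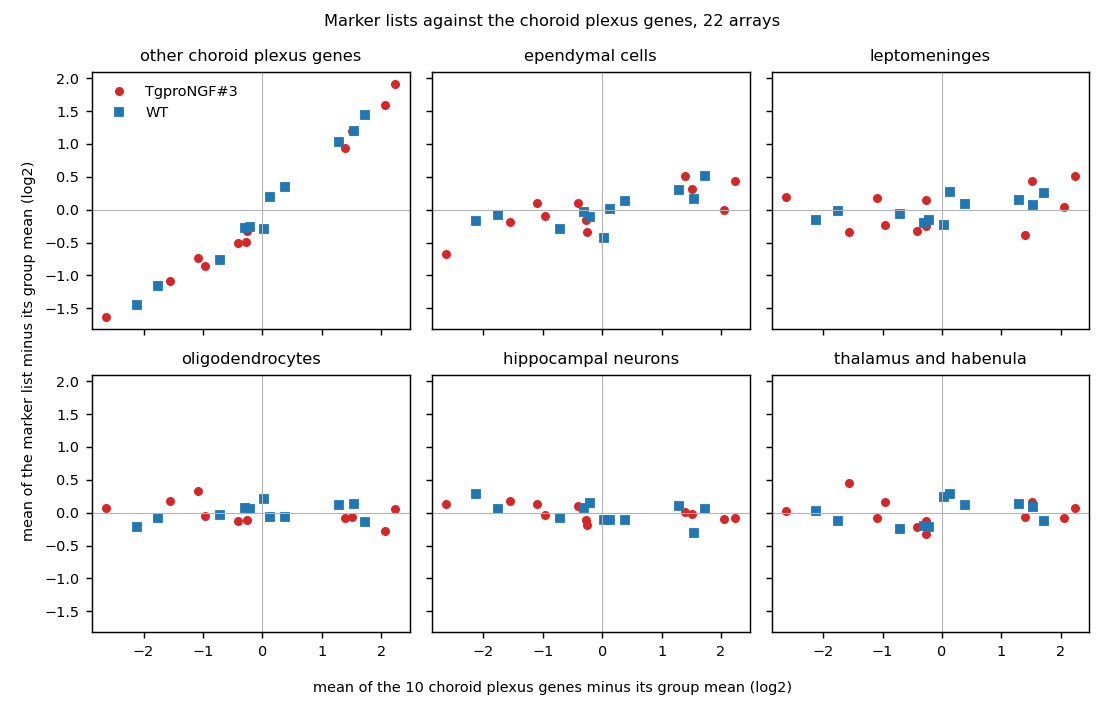
Mean level of 6 marker lists against the mean of the 10 choroid plexus genes on 22 arrays, both as log2 deviations from the mean of the array's genotype and age (circles, TgproNGF#3; squares, WT). The other choroid plexus genes follow the diagonal (r = 0.99), for ependymal markers r is 0.74, and for oligodendrocyte and thalamic markers r is -0.17 and 0.02. Spots not well above background were kept in these means.

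Markers of other cell types were set against the choroid plexus genes in the same way, and the correlations were not tested against each other. The mean of 19 ependymal genes, which mark the ciliated lining of the ventricles, correlated by r = 0.74 (permutation p = 0.00253, adjusted 0.0114) and rho = 0.69 (p = 0.005, adjusted 0.0225), and by 0.63 without the 2 farthest arrays. For 20 leptomeningeal genes r was 0.38 (adjusted p = 0.272) and rho 0.36 (adjusted p = 0.300), and for 15 oligodendrocyte genes -0.17 (0.831) and -0.17 (0.683). For 15 genes of hippocampal neurons r was -0.51 (p = 0.0361, adjusted 0.108) and rho -0.50 (p = 0.0385, adjusted 0.116). The 15 thalamic and habenular genes gave an r of 0.02 (adjusted p = 0.969) and a rho of 0.16 (0.683). Of 22 arrays, Chrnb3 of this list was well above background on 0, Gbx2 on 1, Chrna3 on 2, Gpr151 on 7 and Plekhg1 on 11. Spots not well above background were kept in this mean, and their effect on r was not tested. The 10 genes of the list well above background throughout had an r with Ttr from -0.23 to 0.40 (median 0.00). For the array's 75th percentile r was -0.08 (adjusted p = 0.969) and rho -0.05 (0.847), and for its share of spots well above background 0.01 (0.969) and 0.14 (0.683).

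At 12 months, where 1.3% of all probes were called, markers of the other ventricular and meningeal cells were read beside the choroid plexus genes. Of 20 leptomeningeal genes 10 were called down-regulated, among them Asgr1 (Log2 FC -1.95 ± 0.32), Fmod (-1.85 ± 0.33), Col3a1 (-1.80 ± 0.23) and Col1a2 (-1.65 ± 0.22), at limma adjusted p-values from 0.349 to 0.549. At 1 month 0 of 20 and at 3 months 0 of 20 leptomeningeal genes were called, beside 0.57% and 6.76% of all probes. With 1 mouse left out the count was 0 to 4 at 3 months (5.68% to 8.54% of all probes). At 12 months it was then 9 to 11 (0.681% to 3.06%). At 1 and 3 months 6 and 19 genes were above a Log2 FC of 0, with medians of -0.21 and 0.56, against 1 above 0 and a median of -1.13 at 12 months. The log2 of the summed intensities of that list ran from 3.42 to 3.92 in TgproNGF#3 and from 4.01 to 4.30 in WT mice, without overlap. For the choroid plexus genes the same sum ran from 4.37 to 7.68 in TgproNGF#3 and from 4.43 to 8.10 in WT mice, with overlap. Since the lists rest on different probes, only the genotypes within a list can be compared. Of 18 ependymal genes tested at 12 months 1 was called, Ak7 (-1.04 ± 0.30, adjusted p = 0.55), and all 18 had a Log2 FC below 0. At 1 month all 19 ependymal genes tested had a Log2 FC above 0 (median 0.28), and at 3 months 10 were above and 8 below. As for the choroid plexus genes, genes of a list that vary together do not count as separate observations, and no test was made of the common sign. The Ak7 call was lost without WT replicate 1 or 2, while 5 of 16 genes were called without WT replicate 3 (3.06% of all probes) and 2 of 18 without TgproNGF#3 replicate 1 (1.75%). Among the other lists, 1 of 15 oligodendrocyte genes was called at 3 months, near the 6.76% of all probes called at that age. It was the enzyme Aspa (1.04 ± 0.14, limma adjusted p = 0.004), a call lost without TgproNGF#3 replicate 4, and 0 of 15 oligodendrocyte genes were called at 1 and at 12 months. Of 14 genes of hippocampal neurons tested at 12 months 1 was called, C1ql2 of dentate granule neurons (-1.05 ± 0.44, adjusted p = 0.55). Of the 14, 9 had a Log2 FC above 0 and 5 below, with a median of 0.08, and Prox1, also of granule neurons, was at -0.06 ± 0.15. The count of that list was 0 without TgproNGF#3 replicate 2 or 3 or with WT replicate 1 or 2 left out, and 3 without WT replicate 3. Of thalamic and habenular genes 0 of 12 were called at 1 month, 0 of 10 at 3 months and 0 of 10 at 12 months, but at 3 months 2 of 10 passed an adjusted and 3 of 10 an unadjusted p below 0.05 without a fold limit, beside 8.43% and 27.2% of all probes. The part of these tissues in the choroid plexus values was not tested.

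The genes whose pattern was most like that of Ttr were mostly from the list of further choroid plexus genes. Over 22 arrays and 14518 genes with a probe well above background throughout, the 8 closest outside the 10 were Slc4a5 (r = 0.97), Aqp1 (0.96), Cldn2 (0.96), Ecrg4 (0.96), F5 (0.94), Steap1 (0.94), Wfdc2 (0.93) and Col8a1 (0.93). Slc4a5 is a sodium bicarbonate cotransporter, Aqp1 the water channel of the apical membrane and Cldn2 a claudin of its tight junctions. Wfdc2 was the only 1 of the 8 in none of the marker lists. In all, 80 genes had an r above 0.8 and 2 an r below -0.8, while the median gene was at -0.07.

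**Figure D5:**
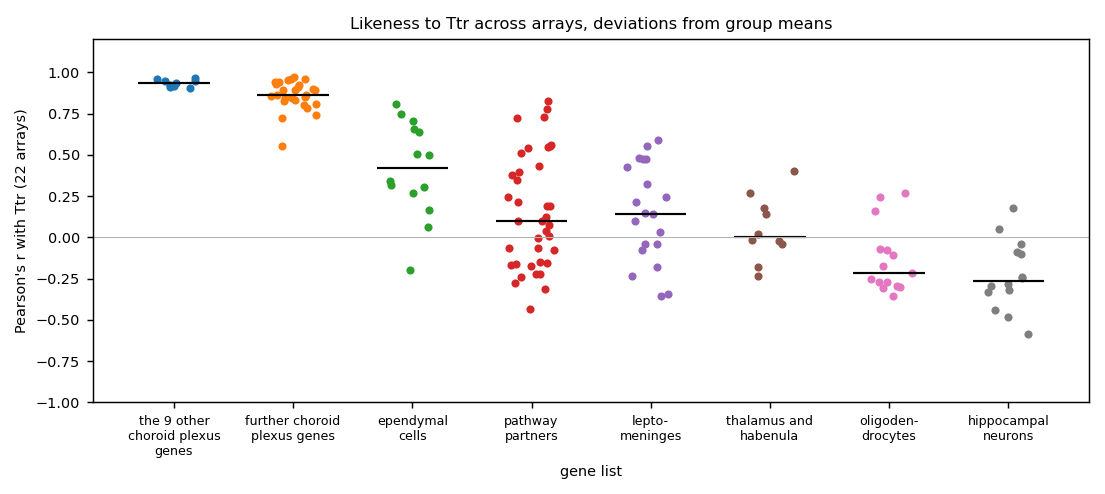
Pearson's r with Ttr over 22 arrays, on deviations from group means, for single genes (points) of each list, with the list's median (bar). The 9 other choroid plexus genes lie above 0.90, 23 of 27 further choroid plexus genes lie above 0.8, and the medians of the remaining lists lie between -0.26 and 0.42.

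Ligands, receptors and carriers that act with the products of the 10 genes were read from a list of 43. The mean of this list correlated with that of the 10 genes by r = 0.47 (permutation p = 0.0918, adjusted 0.207) and rho = 0.43 (p = 0.107, adjusted 0.241). Of these genes 0 of 43 were called at 1 month, 1 of 40 at 3 months and 2 of 41 at 12 months, beside 0.57%, 6.76% and 1.3% of all probes, so that the list did not hold more calls than the background at 1 and 3 months. The 3-month call was that of Thrb, a receptor of the hormone that transthyretin carries (Log2 FC -1.18 ± 0.23, limma adjusted p = 0.0156). At 12 months Dio3, the deiodinase that inactivates thyroid hormone, was up-regulated (1.27 ± 0.47, adjusted p = 0.55), and Prl, the ligand of the prolactin receptor, down-regulated (-1.89 ± 0.61, adjusted p = 0.55), with groups that overlapped. The 3-month count was 0 without TgproNGF#3 replicate 4 and 2 without TgproNGF#3 replicate 1 or 3 or WT replicate 1 (6.28% to 8.54% of all probes). The 12-month count was 1 without TgproNGF#3 replicate 1 or WT replicate 2, and 4 of 40 without WT replicate 3 (3.06% of all probes). Prl was well above background on 15 of 22 arrays. Folr2, the folate receptor of macrophages, had an r of 0.83 with Ttr, the highest of this list.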

How the data were processed

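Total RNA of 22 hippocampi was labelled with Cy3 and hybridized to Agilent mouse arrays, 1 mouse per array. The authors deposited spot intensity values from Feature Extraction 10.7.3.1, background-subtracted and not scaled between arrays, and a table of log2 values shifted to a shared 75th percentile. Dim spots (not well above background), outlier spots and control spots were left out here, and the log2 intensity minus the array's 75th percentile of the spots left was averaged per probe. For the means and sums of gene lists dim spots were kept, so that each gene had a value. Symbols came from the RefSeq identifiers of the spots, which differ between ages for 6190 spots. A total of 0 columns had no sample.

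Within each age, genotypes were tested with limma 3.58.1 (R 4.3.3; lmFit and eBayes, two-sided, at least 2 values per group) over all probes, with Benjamini-Hochberg adjustment over all of them; tables were handled with data.table (version 1.17.8). Exact permutation tests and correlations used SciPy; correlations were permuted 100000 times within groups. The procedure was tested on simulated data. The number of arrays limits the precision.

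All 10 genes are named with the probe of the highest mean, and so are the 8 genes most like Ttr. Of each other list the counts and up to 4 called genes with the largest change are given. Of the lists' defining markers those of choroid plexus and hippocampal neurons are named, and Gpr151 of thalamus and habenula. Genes and lists were chosen with earlier results of these data known. Alternatives changed the spot filters, scaling, background correction, fit, blocks, probes and thresholds, or left out a mouse.

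At 1 month same-numbered arrays shared an array row, and their deviations correlated by 0.51, 0.27, 0.19 and 0.21 over 36103 probes. The best match of number 4 was number 2, while numbers 1, 2 and 3 matched their own number best. Each row held 2 arrays of each genotype, so a shared row does not identify a pair.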

Additional observations from a re-analysis of the deposited data

Results flagged for a closer look

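TgproNGF#3 replicate 2 of 1 month lay far above the other 3 mice of its group for Otx2 (level 1.27) and Prlr (level 1.39), with a gap to the next mouse that was most of the group's range (0.89 and 0.83 of it). Chance gives such a gap in about 1 in 20 groups, and 72 groups of 4 were looked at.

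The mean level of the leptomeningeal genes was 0.47 higher in TgproNGF#3 than in WT mice at 3 months and 1.03 lower at 12 months (differences of 0.47 and -1.03, a change of -1.50 on the log2 scale), with every TgproNGF#3 mouse on that side of the WT mean at each age. The difference between the ages was not tested for the list as a whole.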

How the results depend on the processing

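The 0 calls among the 10 choroid plexus genes held at 1, 3 and 12 months under all 15 alternatives of processing, fit and threshold. Of 390 single-gene values under alternatives of processing or fit, 389 kept their direction and side of the thresholds, and Kl at 12 months turned to a Log2 FC of 0.078 with median scaling (the cause was not tested). The median Log2 FC ran from -0.53 to -0.40 at 1 month, from -0.83 to -0.70 at 3 months and from -0.83 to -0.60 at 12 months. The median r between genes was 0.96 under the 8 other processings and from 0.96 to 0.97 with 1 mouse left out.

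With 1 mouse left out, 30 of 220 single-gene values changed sign and 1 passed the thresholds, so that the count at 12 months was 0 to 1. The ranges that crossed 0 were at 1 month those of Enpp2 (-0.75 to 0.19), Folr1 (-1.26 to 0.45), Kcne2 (-1.57 to 0.36), Kcnj13 (-1.69 to 0.026), Sostdc1 (-1.005 to 0.27) and Ttr (-1.41 to 0.34). At 3 months they were those of Enpp2 (-0.78 to 0.15), Folr1 (-1.58 to 0.27), Kcne2 (-2.02 to 0.022), Kcnj13 (-1.09 to 0.41) and Sostdc1 (-1.16 to 0.14), and at 12 months those of Clic6 (-1.50 to 0.24), Enpp2 (-1.30 to 0.16), Kcnj13 (-2.29 to 0.087), Kl (-0.91 to 0.68), Prlr (-1.37 to 0.11) and Sostdc1 (-1.56 to 0.24).

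With the replicate number as a block, 0 genes were called at each age and the medians were -0.46, -0.83 and -0.75. At 3 months same-numbered arrays also shared an array row, with correlations of -0.36 to -0.02. At 12 months the correlations were -0.32 to 0.05, and the arrays of replicate 3 alone shared a row. The 10 leptomeningeal calls of 12 months were 0 at an adjusted p below 0.05, as for all probes of that age. At 12 months the 1 ependymal call was 0 under 9 alternatives and 8 of 18 at an unadjusted p without fold limit, the 1 call of hippocampal neurons 0 under 7 and 3 of 14, and the 2 calls of pathway partners 0 with the array row as a block, 4 with 22 arrays in 1 fit and 6 of 41 at an unadjusted p. At 12 months 9.05% of all probes passed an unadjusted p. At 3 months the 1 partner call became 3 of 40 at an adjusted and 11 of 40 at an unadjusted p without fold limit, and the 1 oligodendrocyte call 2 of 15 and 10 of 15, beside 8.43% and 27.2% of all probes. Of lists with 0 calls at 3 months, hippocampal neurons gave 2 of 14 and 4 of 14 at these thresholds, thalamic and habenular genes 2 of 10 and 3 of 10, ependymal genes 0 and 2 of 18, and leptomeningeal genes 0 and 8 of 20, the last also 1 under 4 other scalings or values. At 1 month an unadjusted p gave 1 of 19 ependymal and 2 of 15 oligodendrocyte genes, beside 3.47% of all probes. The 0 calls of further choroid plexus genes at 12 months became 1 with 22 arrays in 1 fit or with 1 value per group. With 3 or 4 mice per group, the spread between mice limits what can be detected.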
